A study of Homo sapiens with 40 samples.

Results

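The genes examined here are 34 genes of the endoplasmic reticulum (ER) chaperones and the unfolded protein response. They were taken from a list of symbols and matched to the Ensembl identifiers of the count tables. They are 34 of 63152 Ensembl genes, and 33 of them are among the 12557 genes with enough reads to be tested. The list was chosen with earlier results of these data known, so its shares and medians beside those of all genes are descriptive. RNA was sequenced from U2OS, a human osteosarcoma cell line, carrying a stable TetOn construct from which doxycycline (Dox) induces MYC. Cells were infected with pGIPZ vectors that express a short hairpin RNA against CTR9 (shCTR9, hairpins 3 and 5), against CDC73 (shCDC73, hairpins 3 and 4) or with the control hairpin shNTC, and were selected with puromycin at 0.2 µg/ml. Cells with each of these 5 hairpins were then treated with Dox at 1 µg/ml or with ethanol (EtOH) for 24 h, which gives 10 groups of 4 libraries. CTR9 and CDC73 are both part of the PAF1 complex, a set of elongation factors that binds RNA polymerase II on active genes. Every group carries the inducible MYC construct and a vector under puromycin, the control groups included, and all libraries come from 1 cell line.

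The ER folds proteins of the secretory pathway with HSP70 and HSP90 chaperones, with the lectin chaperones that hold N-glycosylated clients, and with oxidoreductases that form disulfide bonds. When unfolded proteins build up, the membrane sensors IRE1 (gene ERN1), PERK (EIF2AK3) and ATF6 start the unfolded protein response, in which XBP1 and ATF6 raise transcription of chaperone and degradation genes while PERK slows translation. Many of these target genes carry an ER stress element in the promoter, bound by NF-Y together with ATF6 or XBP1.

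The promoters of the listed genes were read for 2 forms of this element. The windows run from 250 bases before to 50 bases after each RefSeq start (GRCh38.p14), and 31 of the 34 genes have at least 1. No window was used for PDIA3, DERL1 and SEC24D. The first form, ERSE, was searched as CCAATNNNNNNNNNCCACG and the second, ERSE-II, as ATTGG and CCACG with 1 base of any kind between them, on both strands. ERSE was found in 8 of the 31 genes (25.8%), against 25 of all 27305 genes with a window (0.0916%). Among the 8946 tested genes with a window it was found in 17 (0.19%). ERSE-II was found in 3 of the 31 (9.68%), against 19 of 27305 (0.0696%) and 14 of the 8946 (0.156%). The list was made of genes of this response, many of which are known to carry the element. These shares therefore describe the list and are not a test. The 11 genes with either form, written on the strand of the motif with the fixed letters in capitals, hold these matches.
HSPA5: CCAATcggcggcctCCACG
HSP90B1, upstream match: CCAATcggaaggagCCACG
HSP90B1, match nearer the start: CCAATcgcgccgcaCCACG
CALR: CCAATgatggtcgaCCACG
CANX: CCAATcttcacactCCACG
PDIA6: CCAATgagccgcagCCACG
ERO1B: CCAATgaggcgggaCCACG
CRELD2: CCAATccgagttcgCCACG
XBP1: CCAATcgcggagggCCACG
HYOU1, at both of its matches: ATTGGaCCACG
SDF2L1: ATTGGtCCACG
HERPUD1: ATTGGgCCACG

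**Figure D1:**
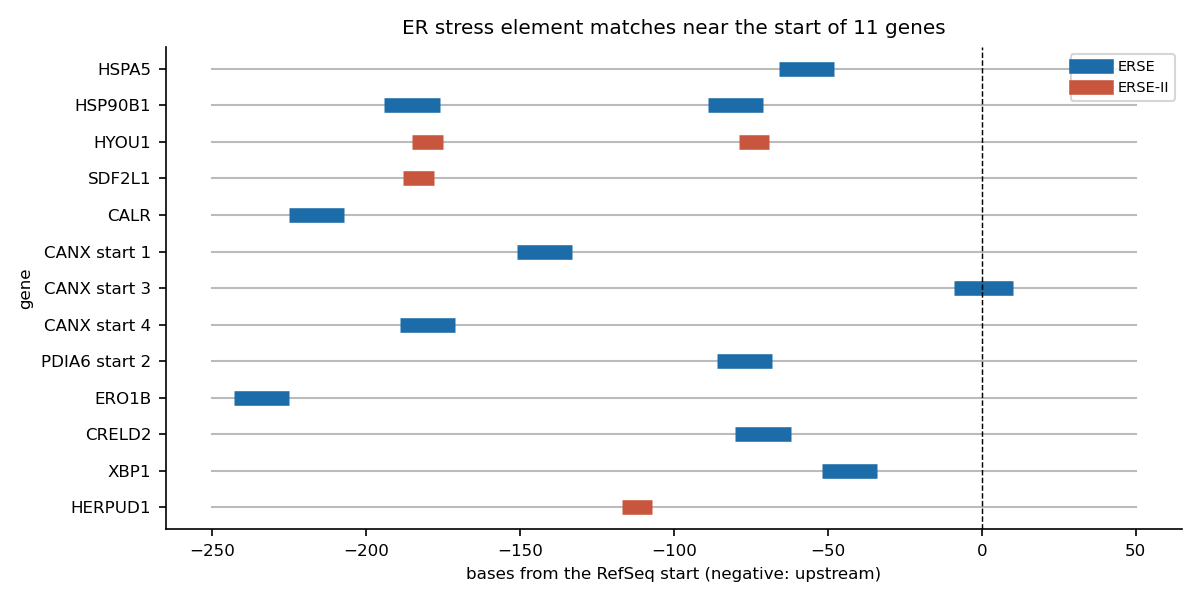
Position of each ERSE and ERSE-II match, in bases from the RefSeq start, for the 11 genes that hold one; grey lines are the windows searched. All matches lie upstream of the start except the 1 at start 3 of CANX, which spans it, and HSP90B1 and HYOU1 hold 2 each.

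The UPRE, searched as TGACGTGG or TGACGTGA, was found in 1 of the 31 genes, HYOU1, where it overlaps an ERSE-II match. Its share was 1.44% of all genes and 2.05% of tested genes with a window. The E-box CACGTG, a motif bound by MYC, was found in 5 of the 31 genes, 16.1%. This stands against 8.77% of all genes and 12.9% of tested genes with a window, a small excess over the latter. Those 5 are HSP90B1, DNAJB9, CANX, HERPUD1 and SELENOS. The promoters of 4 genes follow as the 250 bases before the start, 5′ to 3′ on the strand of the gene, with the ERSE or ERSE-II in capitals, on either strand. They were chosen because HSPA5, CRELD2 and HERPUD1 were higher in shCDC73 than in shNTC cells while CANX, which holds the same element, was lower.
HSPA5, chr9:125241344-125241593 (minus strand): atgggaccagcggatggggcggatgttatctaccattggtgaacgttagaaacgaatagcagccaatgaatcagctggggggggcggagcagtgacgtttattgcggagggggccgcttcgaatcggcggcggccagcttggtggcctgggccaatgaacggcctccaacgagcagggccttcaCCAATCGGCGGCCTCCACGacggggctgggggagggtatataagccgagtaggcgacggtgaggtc
CRELD2, chr22:49918384-49918633 (plus strand): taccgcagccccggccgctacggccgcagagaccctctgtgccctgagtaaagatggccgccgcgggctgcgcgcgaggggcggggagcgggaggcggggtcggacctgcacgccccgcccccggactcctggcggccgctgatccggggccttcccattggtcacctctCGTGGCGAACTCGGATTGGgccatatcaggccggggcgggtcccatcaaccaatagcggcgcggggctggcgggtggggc
HERPUD1, chr16:56931892-56932141 (plus strand): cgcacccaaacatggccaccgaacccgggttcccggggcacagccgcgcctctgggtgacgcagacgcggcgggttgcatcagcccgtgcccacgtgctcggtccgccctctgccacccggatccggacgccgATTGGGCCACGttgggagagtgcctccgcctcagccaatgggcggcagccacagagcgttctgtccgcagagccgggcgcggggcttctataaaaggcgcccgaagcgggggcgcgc
CANX, chr5:179698679-179698928 (plus strand): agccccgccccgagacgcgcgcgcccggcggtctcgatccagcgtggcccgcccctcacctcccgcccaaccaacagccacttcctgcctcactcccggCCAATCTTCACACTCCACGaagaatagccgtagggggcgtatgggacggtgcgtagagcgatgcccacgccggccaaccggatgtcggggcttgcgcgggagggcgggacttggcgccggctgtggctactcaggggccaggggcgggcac

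Libraries held 877323 to 1532617 counts, with a median of 1213230.5. Levels are CPM, counts scaled to a common library size with the TMM factors, changes are log2 fold changes ± standard error from edgeR, and adjusted p-values (Benjamini-Hochberg) run over all 12557 genes with a threshold of 0.05. The libraries of a group are called replicates in the labels, which do not say that they come from separate cultures. The p-values therefore measure the spread between libraries, which may be technical. Where the hairpins of a target were averaged, the p-values leave out the spread between hairpins. Each target was lower under its own hairpins. CTR9 averaged 22.04 ± 3.097 CPM in Dox shCTR9 libraries against 87.9 ± 10.4 CPM in Dox shNTC libraries, and 20.3 ± 2.28 CPM in EtOH shCTR9 against 73.9 ± 4.89 CPM in EtOH shNTC libraries (SD, n = 8 and 4). CDC73 averaged 8.07 ± 3.61 CPM in Dox shCDC73 libraries against 29.5 ± 2.81 CPM in Dox shNTC, and 8.11 ± 1.99 CPM in EtOH shCDC73 against 35.6 ± 6.68 CPM in EtOH shNTC libraries. CTR9 was also higher in shCDC73 than in shNTC libraries, by 0.92 ± 0.09 in Dox and 1.18 ± 0.09 in EtOH. MYC was higher with Dox by 4.09 ± 0.06 in shCTR9, 4.00 ± 0.06 in shCDC73 and 4.88 ± 0.09 in shNTC cells. In 3 libraries levels fell with transcript length more steeply than in the other 37 (slope -0.206 in EtOH shCTR9 hairpin 3 replicate 1, and -0.167 and -0.221 in EtOH shCDC73 hairpin 4 replicates 1 and 3, against -0.0874 to 0.062). None of the 5 blood markers and 1 of 5 secretory-cell markers (SDC1) reached the filter, while 5 of 8 mesenchymal and osteoblast markers did, with COL1A2, ALPL and BGLAP at or near 0, and so did 3 of 5 epithelial markers. Between shCTR9 and shCDC73 cells none of the 5 mesenchymal or 3 epithelial markers tested was called with either treatment. Against shNTC 2 of the 5 mesenchymal markers were lower and 1 higher with Dox in either knockdown, 3 lower and 1 higher with EtOH, and 2 of the 3 epithelial markers were higher in shCDC73 cells. SDC1 was lower in shCTR9 than in shNTC cells by 0.85 ± 0.08 with Dox and 1.26 ± 0.08 with EtOH, and in shCDC73 cells by 0.54 ± 0.08 and 1.01 ± 0.08. Their part in the results was not tested.

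Per kilobase of exon, averaged over all 40 libraries, the most abundant of the listed transcripts were CALR (434 CPM per kb), HSPA5 (299.9), HSP90B1 and CANX, and the scarcest that were tested were EIF2AK3, which encodes PERK, and ERO1B. DERL1, a channel-like protein of ER-associated degradation, is listed with 39 reads in all 40 libraries and was not tested. Its exons overlap those of TBC1D31 on the opposite strand, and the strand setting of the counting is not given in the sources used here. The same caution applies to PDIA6, 25.2% of whose exonic bases overlap ATP6V1C2 (125 reads), and to PDIA3 (ELL3, 0 reads). It also applies to DNAJB9, 3.49% of whose exonic bases overlap PNPLA8 (2772 reads against 2219 for DNAJB9). For SEC61A1 7.32% overlap RUVBL1 (4926 reads against 3262 for SEC61A1). SYVN1 overlaps FAU (11727 reads against 2077 for SYVN1) on the same strand, where the strand setting does not separate them. The processed pseudogene HSP90B3P holds 1685 reads, 4.5% as many as HSP90B1.

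Among groups, the ratio of the highest to the lowest group mean ran over the 33 genes from 1.21 for HSP90B1 to 6.93 for ERO1B. The next widest were PPP1R15A (4.28), ERN1 (3.68), DNAJB9 (3.34) and PDIA4 (2.53). The highest mean lay in Dox shCDC73 hairpin 3 for 11 of the 33 genes. The lowest lay in an shNTC group for 17, of which 9 were in Dox and 8 in EtOH. Where the extremes of all genes lie was not computed, so these counts describe the list and do not set it apart. With Dox the listed genes together took 0.668% ± 0.0186 of all reads with CTR9 hairpin 3, 0.654% ± 0.0158 with CTR9 hairpin 5, 0.747% ± 0.015 with CDC73 hairpin 3 and 0.705% ± 0.0196 with CDC73 hairpin 4, against 0.637% ± 0.0109 in shNTC libraries (SD, n = 4 each). All 8 shCDC73 libraries lay above the 4 shNTC libraries with Dox, while both CTR9 hairpins overlapped them. With EtOH the shares were 0.655% ± 0.0289, 0.655% ± 0.012, 0.729% ± 0.0202 and 0.684% ± 0.0295 for the same hairpins in that order, against 0.689% ± 0.00663 in shNTC libraries (SD, n = 4 each). There all 8 shCTR9 libraries lay below the 4 shNTC libraries, CDC73 hairpin 3 lay above them and CDC73 hairpin 4 overlapped them. The gap was narrow, with the highest shCTR9 library at 0.681% and the lowest shNTC library at 0.682%. These shares are weighted by the most abundant transcripts. One of them, CANX, was at -0.84 and -0.57 with CTR9 hairpins 3 and 5 alone against shNTC in EtOH. By gene, 20 of the 33 had a change above 0 in shCTR9 against shNTC cells with EtOH, and 13 below.

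**Figure D2:**
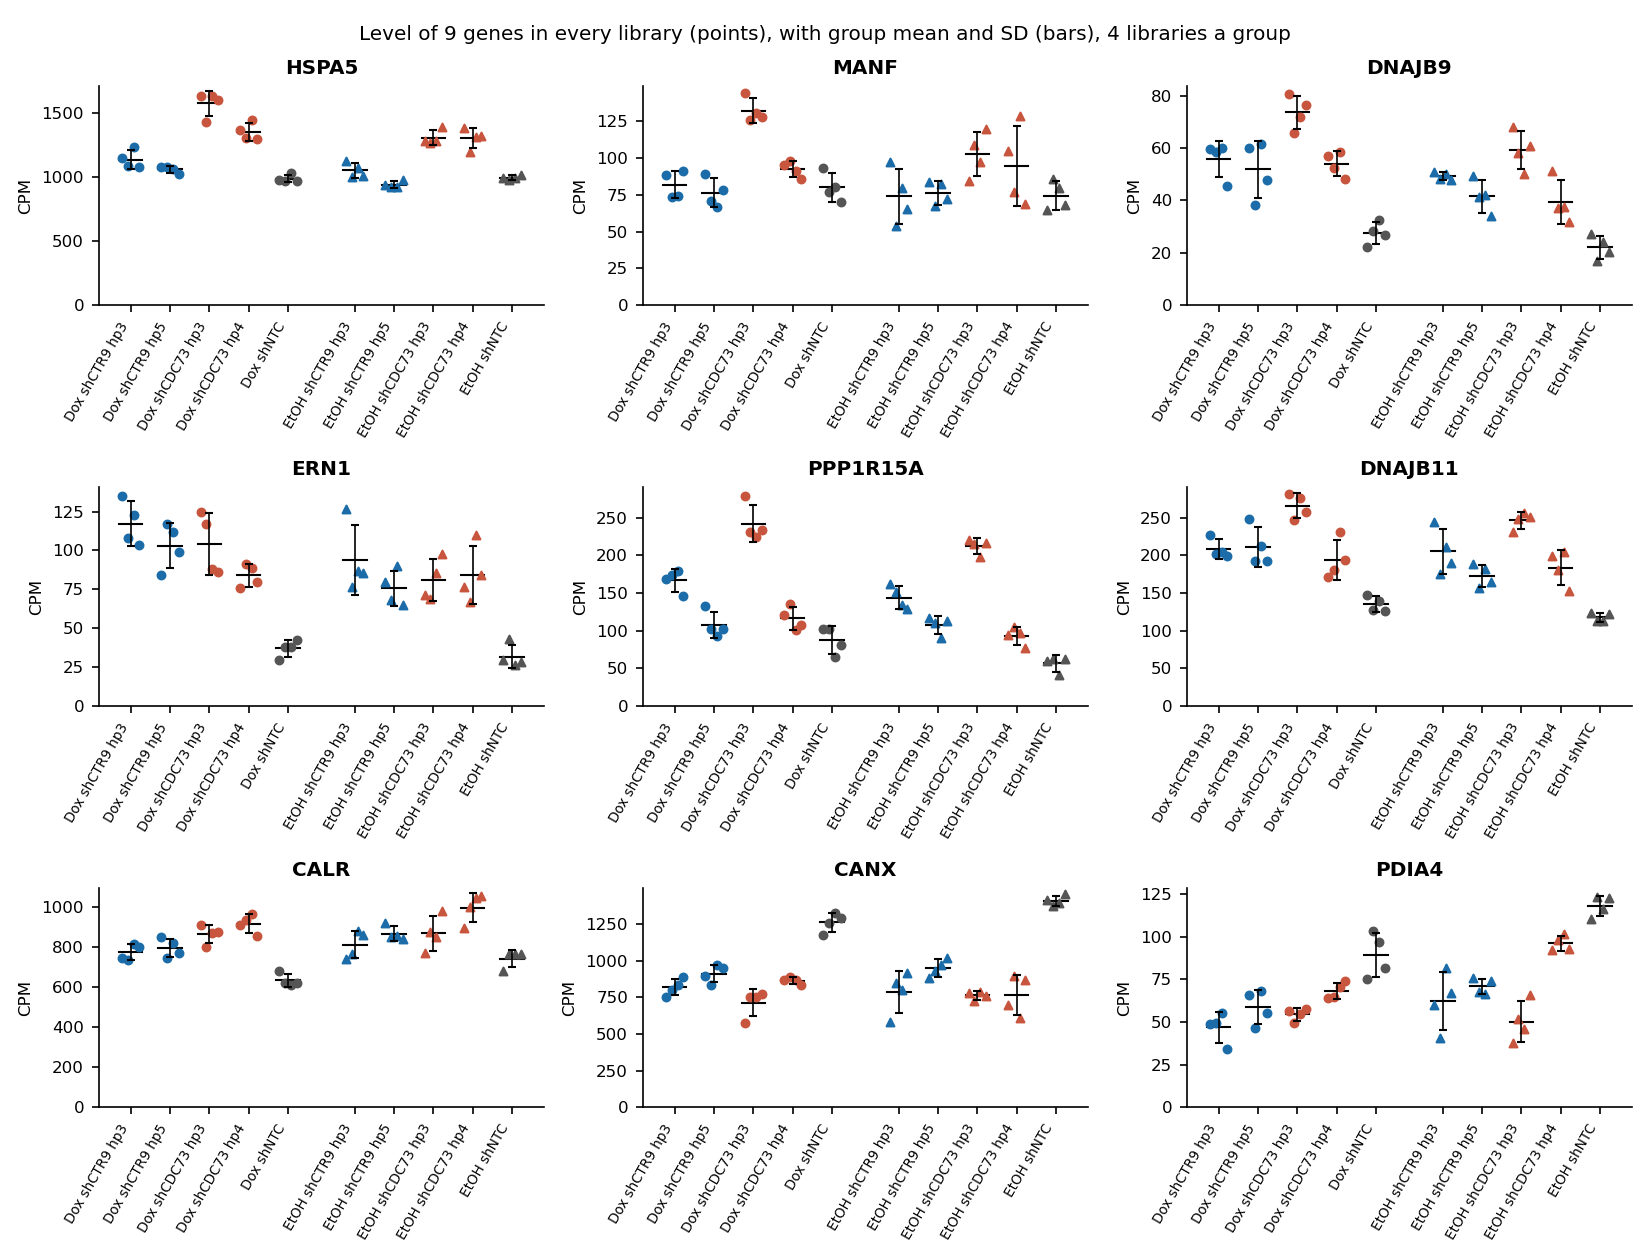
CPM of 9 genes in each of the 40 libraries (points; circles Dox, triangles EtOH), by treatment and hairpin (hp), with the group mean and SD as bars. With either treatment the HSPA5 points of shCTR9 libraries all lie below those of shCDC73 libraries; CANX and PDIA4 are highest in shNTC libraries, and DNAJB9, DNAJB11 and ERN1 lowest there.

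The comparison of the knockdowns with each other asks whether loss of these PAF1 complex subunits leaves the ER folding genes at the same level. Fewer of them were called than against shNTC, and nearly all of those called were lower in shCTR9 cells. More were called between the 2 CDC73 hairpins, 9 of the 33 with Dox and 10 with EtOH, against 13% and 31.2% of all genes. The p-values between the knockdowns do not include that spread between hairpins. With Dox, 1 of the 33 genes was higher in shCTR9 than in shCDC73 cells, against 5.69% of all genes, and 7 were lower, against 4.65% of all genes. With EtOH, 0 were higher, against 8.34%, and 6 were lower, against 6.59%. The median change of the 33 genes was -0.16 with Dox and -0.13 with EtOH, beside -0.01 and -0.01 for all genes tested. Within replicates 1 and 2 alone 0 genes were called with Dox and 2 with EtOH, and within replicates 3 and 4 alone 2 and 1. Without the 3 libraries of steep length slope the calls were 2 higher and 9 lower with Dox, and 0 higher and 8 lower with EtOH. In bulk RNA, fewer cells expressing a gene and less of its RNA per cell cannot be told apart.

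HSPA5, which encodes BiP, the main HSP70 of the ER lumen, was the one gene whose call between the knockdowns held for every pair of hairpins. It had 1022 to 1234 CPM (median 1079.9) in the 8 Dox shCTR9 libraries, against 1302 to 1636 CPM (median 1440.2) in the 8 Dox shCDC73 libraries. With EtOH it had 922 to 1126 CPM (median 990.1) in shCTR9, against 1195 to 1395 CPM (median 1299.8) in shCDC73 libraries. In both treatments every shCTR9 library was below every shCDC73 library, and HSPA5 was the 1 gene of the 33 for which the groups did not overlap, against 1.25% of all genes with Dox and 0.916% with EtOH. It was lower in shCTR9 cells, at -0.41 ± 0.05 with Dox (adjusted p = 3.96e-08) and -0.39 ± 0.05 with EtOH (adjusted p = 5.8e-08). Each of the 4 pairings of a single CTR9 hairpin with a single CDC73 hairpin gave the same direction and passed, from -0.57 to -0.25 with Dox and from -0.47 to -0.31 with EtOH. The deposited names put replicates 1 and 2 under one letter and replicates 3 and 4 under another, and what the letters stand for is not given. Within replicates 1 and 2 HSPA5 was at -0.39 with Dox (adjusted p = 0.0552) and -0.37 with EtOH (adjusted p = 0.036), and within replicates 3 and 4 at -0.45 (adjusted p = 0.00112) and -0.42 (adjusted p = 0.000961).

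MANF and CRELD2 encode small ER-resident proteins that cells under ER stress induce and secrete. MANF had 67.01 to 91.4 CPM (median 76.4) in Dox shCTR9 libraries, against 85.7 to 145 CPM (median 112) in Dox shCDC73 libraries. With EtOH MANF had 54.1 to 97.2 CPM (median 75.9) in EtOH shCTR9, against 68.7 to 129 CPM (median 101) in EtOH shCDC73 libraries. The ranges overlap in both treatments, and with Dox the high values belong to CDC73 hairpin 3. MANF was lower in shCTR9 cells by 0.48 ± 0.10 with Dox (adjusted p = 0.00179) and by 0.39 ± 0.11 with EtOH (adjusted p = 0.00906). Set against CDC73 hairpin 4 alone neither CTR9 hairpin passed in either treatment (adjusted p = 0.127 to 0.549). CRELD2 was lower in shCTR9 cells with EtOH, at -0.52 ± 0.13 (adjusted p = 0.00318). CTR9 hairpin 3 did not pass for CRELD2 against either CDC73 hairpin (adjusted p = 0.231 and 0.138). With Dox its change was -0.15 ± 0.13 (95% interval -0.40 to 0.11), and whether the treatments differ was tested by the difference of Dox responses, which called none of the 33 genes.

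EDEM1, a lectin that takes misfolded glycoproteins towards degradation, had 93.5 to 121 CPM (median 107) in Dox shCTR9 libraries, against 109 to 150.4 CPM (median 131) in Dox shCDC73 libraries. With EtOH EDEM1 had 101 to 123 CPM (median 111) in EtOH shCTR9, against 104 to 195 CPM (median 144) in EtOH shCDC73 libraries. The groups overlap, with the shCTR9 libraries at the low end. The change was -0.29 ± 0.08 with Dox (adjusted p = 0.00914) and -0.38 ± 0.08 with EtOH (adjusted p = 0.000375). Against CDC73 hairpin 4 alone EDEM1 passed with neither CTR9 hairpin in either treatment (-0.17 and -0.30 with Dox, -0.18 and -0.18 with EtOH, for CTR9 hairpins 3 and 5). ERO1B, an oxidase that recharges the protein disulfide isomerases, was lower with EtOH at -0.96 ± 0.25 (adjusted p = 0.00618), with 1.02 to 10.2 CPM (median 4.25) in shCTR9 against 6.07 to 13.4 CPM (median 9.45) in shCDC73 libraries. These are few reads per library, and the change was -0.07 when CTR9 hairpin 3 was set against CDC73 hairpin 4 alone.

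Of the remaining calls between the knockdowns, SEC24D, a cargo adaptor of the COPII coat, was at -0.50 ± 0.13 with Dox (adjusted p = 0.00782) and -0.35 ± 0.13 with EtOH (adjusted p = 0.0511). Of the 4 pairings of single hairpins, 1 passed for SEC24D with Dox, from -0.61 to -0.39. PPP1R15A, the phosphatase subunit that reverses the PERK signal, was at -0.33 ± 0.09 with Dox (adjusted p = 0.011), but its sign depended on the hairpins. CTR9 hairpin 3 against CDC73 hairpin 4 gave 0.51 with Dox and 0.63 with EtOH. PDIA6, a protein disulfide isomerase, was lower by 0.20 ± 0.06 with Dox and by 0.16 ± 0.06 with EtOH (adjusted p = 0.0157 and 0.0352). With CTR9 hairpin 3 no pairing passed for PDIA6, and with EtOH its value was 0.03 against CDC73 hairpin 3. The EtOH call of PDIA6 also ended without replicate 3 or 4 of EtOH shCDC73 hairpin 3, or replicate 4 of EtOH shCDC73 hairpin 4, or replicate 2 of EtOH shCTR9 hairpin 3 (adjusted p = 0.0574 to 0.074). CALR, the soluble lectin chaperone calreticulin, was lower by 0.18 ± 0.05 with Dox (adjusted p = 0.0244), a call that ended without replicate 3 of Dox shCDC73 hairpin 4 (adjusted p = 0.0502). Of the 4 pairings of single hairpins, 1 passed for CALR.

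SYVN1, the ubiquitin ligase HRD1 of the ER membrane, was the single gene called higher in shCTR9 cells, at 0.34 ± 0.11 with Dox (adjusted p = 0.0351). It had 40.05 to 50.9 CPM (median 46.5) in Dox shCTR9 libraries, against 25.05 to 50.2 CPM (median 35.8) in Dox shCDC73 libraries. The groups overlap. CDC73 hairpin 3 had 29.6, 31.1, 25.05 and 38.3 CPM and hairpin 4 50.2, 44.8, 46.8 and 33.3 CPM, and the change against CDC73 hairpin 4 alone was 0.07 for CTR9 hairpin 3 and 0.13 for CTR9 hairpin 5. The call ended without replicate 1, 2 or 3 of Dox shCDC73 hairpin 3, or replicate 2 or 4 of Dox shCDC73 hairpin 4, or replicate 1, 3 or 4 of Dox shCTR9 hairpin 3, or replicate 2 or 4 of Dox shCTR9 hairpin 5 (adjusted p = 0.0529 to 0.102). For genes not called, the 95% intervals, not adjusted for the number of genes, bound the difference. For DNAJB9 they were -0.44 to -0.03 with Dox and -0.31 to 0.13 with EtOH, for SELENOS -0.25 to 0.20 and -0.22 to 0.22, and for SDF2L1, one of the widest, -0.68 to 0.07 and -0.72 to 0.04.

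**Figure D3:**
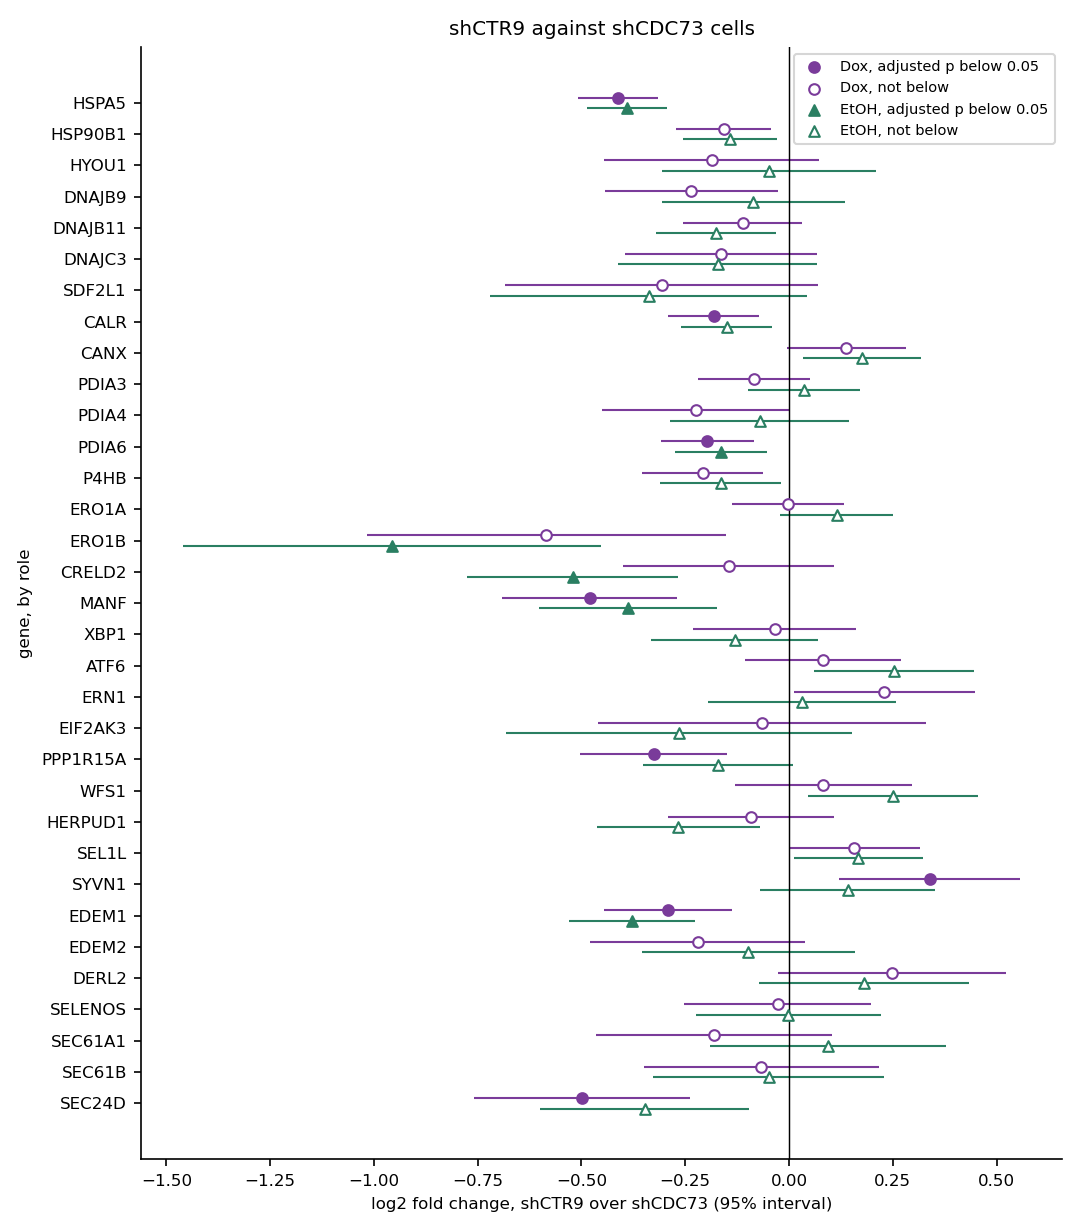
Fitted log2 fold change of shCTR9 over shCDC73 cells for the 33 genes tested, with 95% intervals, in Dox (circles) and EtOH (triangles); filled symbols have an adjusted p below 0.05. With Dox 26 of the 33 points and with EtOH 23 lie left of 0; HSPA5 lies at -0.41 and -0.39.

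Each knockdown was also compared with shNTC, and here the genes moved in both directions. In both knockdowns BiP's J-domain partners DNAJB9 and DNAJB11, the sensor ERN1, PPP1R15A and the degradation factor SELENOS were higher, and the lectin chaperone CANX and the disulfide isomerase PDIA4 were lower, with either treatment. In shCTR9 cells with Dox 14 of the 33 genes were higher, against 21.1% of all genes, and 6 were lower, against 20.6%. With EtOH 9 were higher, against 23.2%, and 5 lower, against 22.4%. In shCDC73 cells with Dox 18 were higher, against 22.2%, and 3 lower, against 22.7%. With EtOH 14 were higher, against 24.4%, and 6 lower, against 24.6%.

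The median change over the 33 genes against shNTC was 0.15 with Dox and 0.11 with EtOH in shCTR9 cells, and 0.42 with Dox and 0.22 with EtOH in shCDC73 cells. Over all genes tested the medians were 0.01, 0.02, 0.01 and 0.01 in the same order. The knockdowns share the 4 shNTC libraries of a treatment, so their values are given side by side and are not independent of each other. Within a knockdown no gene was called in opposite directions in the 2 treatments, and the difference between treatments, tested as the difference of Dox responses, was called for none of the 33. For shCTR9, 7 genes were higher and 5 lower with both treatments, and for shCDC73, 13 were higher and 2 lower. Of the calls, 11 of 20 (Dox) and 9 of 14 (EtOH) for shCTR9, and 15 of 21 (Dox) and 13 of 20 (EtOH) for shCDC73, held with each library left out in turn and with each hairpin alone. Within replicates 1 and 2 alone 9 genes were called with Dox and 9 with EtOH for shCTR9, and within replicates 3 and 4 alone also 9 and 9. For shCDC73 these counts were 14 and 11 within replicates 1 and 2, and 15 and 17 within replicates 3 and 4. The groups did not overlap for 13 of the 33 genes in shCTR9 cells with Dox, against 26% of all genes, and for 11 with EtOH, against 24.9%. In shCDC73 cells they did not overlap for 14 with Dox, against 24.2%, and for 11 with EtOH, against 22.2%. Without the 3 libraries of steep length slope, 11 genes were higher and 6 lower in shCTR9 cells with EtOH and 14 higher and 7 lower in shCDC73 cells with EtOH.

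**Figure D4:**
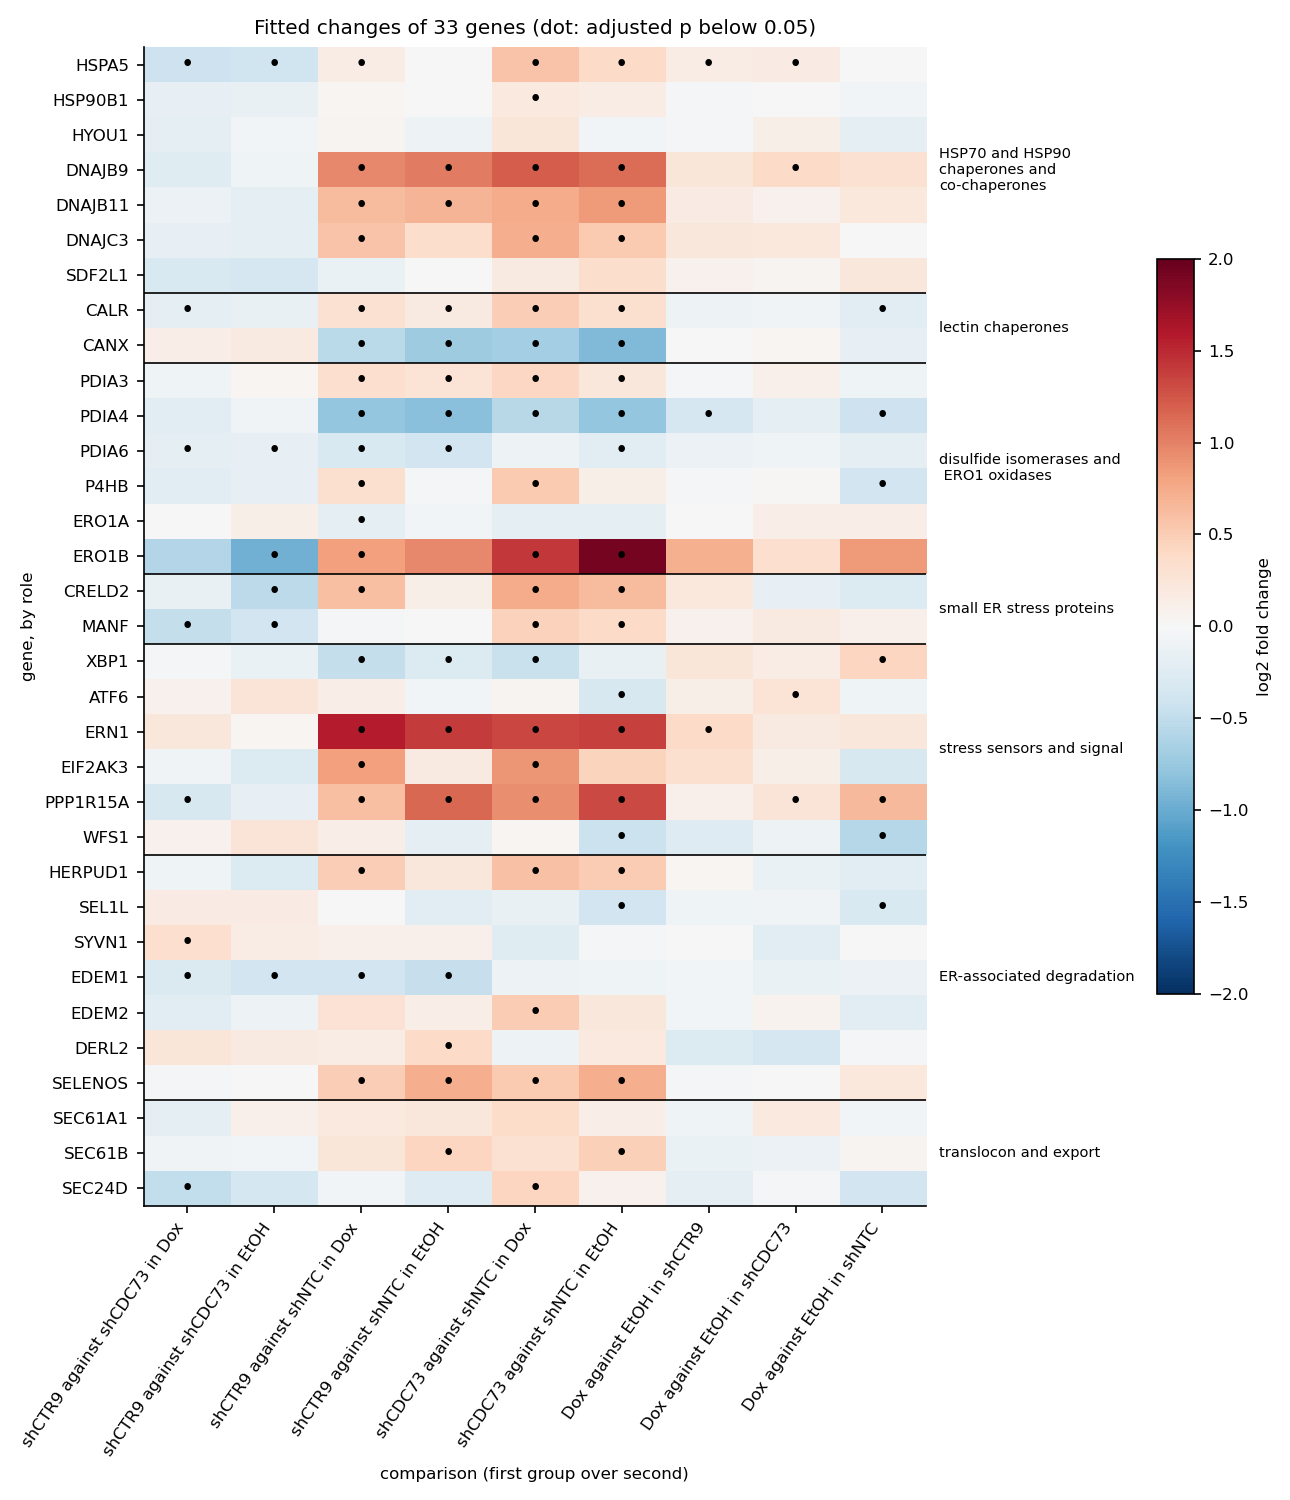
Fitted log2 fold change (colour, -2 to 2) of the 33 genes tested, in rows by role, for 9 comparisons in columns, the first-named group over the second; a dot marks an adjusted p below 0.05. DNAJB9, DNAJB11, ERN1 and PPP1R15A are red and CANX and PDIA4 blue in all 4 comparisons with shNTC, whereas fewer dots stand in the columns of shCTR9 against shCDC73 and of Dox against EtOH.

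Among the HSP70 and HSP90 chaperones and their co-chaperones, HSPA5 had 1302 to 1636 CPM (median 1440.2) in the 8 Dox shCDC73 libraries, against 978, 973, 1030.0 and 969 CPM in the 4 Dox shNTC libraries. With EtOH it had 1195 to 1395 CPM (median 1299.8) in shCDC73, against 996, 974, 997 and 1019 CPM in shNTC libraries. No shCDC73 library reached down to an shNTC library in either treatment, and the change was 0.57 ± 0.06 with Dox (adjusted p = 5.92e-11) and 0.39 ± 0.06 with EtOH (adjusted p = 3.47e-07). In shCTR9 cells with EtOH no change of HSPA5 was detected (95% interval -0.12 to 0.12, adjusted p = 0.987). With Dox the change in shCTR9 cells was 0.15 ± 0.06 (adjusted p = 0.0325), and that call ended without replicate 1 or 3 of Dox shCTR9 hairpin 3, or replicate 1, 2 or 3 of Dox shCTR9 hairpin 5, or replicate 1, 2 or 4 of Dox shNTC (adjusted p = 0.0557 to 0.0992) and with hairpin 5 alone (0.10, adjusted p = 0.255). HSP90B1, the HSP90 of the ER, was at 0.04 ± 0.07 with Dox and 0.01 ± 0.07 with EtOH in shCTR9 cells, neither past the threshold. In shCDC73 cells it was at 0.19 ± 0.07 with Dox (adjusted p = 0.0211), a call that ended without replicate 2 of Dox shNTC (adjusted p = 0.0955) and with hairpin 4 alone (0.11, adjusted p = 0.312), and at 0.15 ± 0.07 with EtOH (adjusted p = 0.0676).

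DNAJB9 is a J-domain protein that directs BiP to aggregation-prone clients and to IRE1. It had 38.2 to 61.4 CPM (median 59.00) in Dox shCTR9 and 48.3 to 80.5 CPM (median 62.1) in Dox shCDC73 libraries, against 22.3, 28.5, 32.7 and 26.8 CPM in Dox shNTC libraries. With EtOH it had 33.9 to 50.9 CPM (median 47.97) in shCTR9 and 31.8 to 67.9 CPM (median 50.7) in shCDC73 libraries, against 27.01, 16.8, 24.3 and 20.1 CPM in shNTC libraries. All knockdown libraries were above all shNTC libraries of their treatment. The changes were 0.97 ± 0.14 and 1.03 ± 0.15 in shCTR9 cells with Dox and EtOH (adjusted p = 3.64e-07 and 2.43e-07), and 1.20 ± 0.14 and 1.12 ± 0.15 in shCDC73 cells (adjusted p = 1.34e-09 and 2.55e-08).

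DNAJB11, a J-domain protein that binds unfolded clients and hands them to BiP, behaved in the same way with smaller changes. It had 192 to 248 CPM (median 203) in Dox shCTR9 and 171 to 282 CPM (median 239) in Dox shCDC73 libraries, against 147, 128, 140.0 and 126 CPM in Dox shNTC libraries, again without overlap. Its changes were 0.63 ± 0.09 with Dox and 0.68 ± 0.09 with EtOH in shCTR9 cells, and 0.74 ± 0.09 and 0.85 ± 0.09 in shCDC73 cells (adjusted p of 1.99e-07 or below). DNAJC3, a further J-domain partner that also inhibits PERK, was higher in shCDC73 cells by 0.73 ± 0.15 with Dox (adjusted p = 9.31e-05) and 0.52 ± 0.15 with EtOH (adjusted p = 0.00341). In shCTR9 cells it was higher by 0.56 ± 0.15 with Dox (adjusted p = 0.00235), and its EtOH value was 0.35 ± 0.15 (adjusted p = 0.0561). The DNAJC3 calls ended with CDC73 hairpin 4 alone in EtOH (0.26, adjusted p = 0.244) and with CTR9 hairpin 5 alone in Dox (0.41, adjusted p = 0.0693). The nucleotide exchange factor HYOU1 and SDF2L1, a partner of DNAJB11, passed in none of the 4 comparisons, with HYOU1 between -0.10 and 0.25 and SDF2L1 between -0.13 and 0.34.

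The lectin chaperones went opposite ways. CANX, the membrane-bound calnexin, had 753 to 969 CPM (median 864) in Dox shCTR9 and 577 to 887 CPM (median 803) in Dox shCDC73 libraries, against 1175, 1257, 1326 and 1289 CPM in Dox shNTC libraries. The EtOH values were 585 to 1019 CPM (median 901) in shCTR9 and 607 to 894 CPM (median 773) in shCDC73 libraries, against 1416, 1375, 1397 and 1454 CPM in shNTC libraries. All knockdown libraries were below all shNTC libraries. CANX was lower by 0.54 ± 0.08 with Dox and 0.70 ± 0.08 with EtOH in shCTR9 cells, and by 0.68 ± 0.08 and 0.88 ± 0.08 in shCDC73 cells (adjusted p = 7.98e-07, 1.67e-09, 3.77e-09 and 2.34e-12).

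CALR, its soluble relative calreticulin, had 735 to 847 CPM (median 784) in Dox shCTR9 and 800.2 to 964 CPM (median 892) in Dox shCDC73 libraries, against 681, 619, 610.2 and 619 CPM in Dox shNTC libraries. All Dox knockdown libraries were above the shNTC libraries. With Dox it was higher by 0.31 ± 0.07 under shCTR9 and 0.49 ± 0.07 under shCDC73 (adjusted p = 0.000222 and 6.24e-08), and with EtOH by 0.33 ± 0.07 in shCDC73 cells (adjusted p = 7.99e-05). The EtOH change in shCTR9 cells, 0.18 ± 0.07 (adjusted p = 0.0291), did not pass without replicate 3 or 4 of EtOH shCTR9 hairpin 3, or replicate 1 of EtOH shCTR9 hairpin 5, or replicate 1 of EtOH shNTC (adjusted p = 0.0727 to 0.174), nor with hairpin 3 alone (0.13, adjusted p = 0.174).

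The disulfide isomerases split as well. PDIA4, an isomerase with extra thioredoxin-like domains, had 33.8 to 68.1 CPM (median 52.2) in Dox shCTR9 and 49.3 to 74.1 CPM (median 60.6) in Dox shCDC73 libraries, against 75.5, 103, 97.03 and 81.9 CPM in Dox shNTC libraries. In EtOH its values were 40.8 to 81.7 CPM (median 67.3) in shCTR9 and 37.5 to 102 CPM (median 78.9) in shCDC73 libraries, against 111, 123, 116 and 122 CPM in shNTC libraries. The knockdown libraries lay below the shNTC libraries throughout. The changes were -0.77 ± 0.13 with Dox and -0.84 ± 0.12 with EtOH in shCTR9 cells, and -0.55 ± 0.13 and -0.77 ± 0.12 in shCDC73 cells (adjusted p of 0.000345 or below). CDC73 hairpin 4 alone with EtOH gave -0.30 (adjusted p = 0.0737).

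PDIA6 was lower in shCTR9 cells by 0.30 ± 0.07 with Dox and 0.38 ± 0.07 with EtOH (adjusted p = 0.00027 and 6.55e-06). In shCDC73 cells it was at -0.10 ± 0.07 with Dox (adjusted p = 0.21) and -0.21 ± 0.07 with EtOH (adjusted p = 0.00661), which ended with hairpin 4 alone (-0.12, adjusted p = 0.226). PDIA3, the isomerase that works with calnexin and calreticulin, was higher by 0.34 ± 0.08 with Dox and 0.27 ± 0.08 with EtOH in shCTR9 cells, and by 0.42 ± 0.08 and 0.23 ± 0.08 in shCDC73 cells (adjusted p = 0.00107, 0.00775, 5.62e-05 and 0.0193). The last of these ended without replicate 3 of EtOH shCDC73 hairpin 4, or replicate 3 or 4 of EtOH shNTC (adjusted p = 0.0563 to 0.0619) and with CDC73 hairpin 4 alone (0.22, adjusted p = 0.0613). The EtOH call of PDIA3 in shCTR9 cells ended with hairpin 5 alone (0.13, adjusted p = 0.288). P4HB, the founding protein disulfide isomerase, was called with Dox, higher by 0.32 ± 0.09 under shCTR9 (adjusted p = 0.00329) and 0.53 ± 0.09 under shCDC73 (adjusted p = 4.18e-06). Its EtOH values were -0.04 ± 0.09 and 0.12 ± 0.09 (adjusted p = 0.74 and 0.247).

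The oxidases that keep the isomerases charged differed from each other. ERO1B had 4.92 to 15.2 CPM (median 7.04) in Dox shCTR9 and 6.96 to 17.4 CPM (median 11.3) in Dox shCDC73 libraries, against 3.59, 4.88, 3.73 and 4.72 CPM in Dox shNTC libraries. The EtOH values were 1.02 to 10.2 CPM (median 4.25) in shCTR9 and 6.07 to 13.4 CPM (median 9.45) in shCDC73 libraries, against 0.844, 3.83, 3.29 and 0.839 CPM in shNTC libraries. In shCDC73 cells it was higher by 1.41 ± 0.30 with Dox and 1.92 ± 0.35 with EtOH (adjusted p = 0.000122 and 1.14e-05), with no overlap of libraries. In shCTR9 cells it was at 0.83 ± 0.32 with Dox (adjusted p = 0.0368) and 0.96 ± 0.41 with EtOH (adjusted p = 0.0582). The Dox call of ERO1B ended without replicate 3 of Dox shCTR9 hairpin 3, or replicate 3 or 4 of Dox shCTR9 hairpin 5, or replicate 1, 3 or 4 of Dox shNTC (adjusted p = 0.0509 to 0.114), and with hairpin 5 alone (0.54, adjusted p = 0.32). ERO1A, the more abundant oxidase, was at -0.19 ± 0.08 in shCTR9 cells with Dox (adjusted p = 0.0495), which ended without replicate 2 or 4 of Dox shCTR9 hairpin 3, or replicate 1, 2 or 4 of Dox shCTR9 hairpin 5, or replicate 1, 2 or 3 of Dox shNTC (adjusted p = 0.054 to 0.167) and with either hairpin alone (adjusted p = 0.0702 and 0.155). It was not called in shCTR9 cells with EtOH (-0.06 ± 0.08) nor in shCDC73 cells with Dox or EtOH (-0.19 ± 0.08 and -0.18 ± 0.08).

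Of the small ER stress proteins, CRELD2 had 34.1 to 51.6 CPM (median 44.8) in Dox shCTR9 and 37.4 to 65.3 CPM (median 51.7) in Dox shCDC73 libraries, against 32.3, 30.1, 29.9 and 25.2 CPM in Dox shNTC libraries. All knockdown libraries with Dox were above the shNTC libraries, with changes of 0.60 ± 0.17 under shCTR9 and 0.75 ± 0.17 under shCDC73 (adjusted p = 0.00305 and 0.000242). With EtOH the change was 0.64 ± 0.16 in shCDC73 cells (adjusted p = 0.000643) and 0.12 ± 0.16 in shCTR9 cells (adjusted p = 0.584). MANF was higher in shCDC73 cells by 0.46 ± 0.13 with Dox (adjusted p = 0.00286) and 0.39 ± 0.13 with EtOH (adjusted p = 0.0111). CDC73 hairpin 4 alone did not pass for MANF, at 0.20 with Dox and 0.32 with EtOH, and the EtOH call ended without replicate 1 of EtOH shNTC (adjusted p = 0.057) and without the libraries of steep length slope (adjusted p = 0.123). In shCTR9 cells no change of MANF was detected (95% interval -0.28 to 0.25 with Dox and -0.27 to 0.27 with EtOH).

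Among the sensors, ERN1, the kinase and endoribonuclease IRE1 that splices the XBP1 transcript, changed most. It had 84.5 to 135 CPM (median 109.8) in Dox shCTR9 and 75.7 to 125 CPM (median 88.6) in Dox shCDC73 libraries, against 29.5, 38.2, 38.3 and 42.5 CPM in Dox shNTC libraries. In EtOH its values were 65.2 to 127 CPM (median 82.7) in shCTR9 and 66.6 to 109.9 CPM (median 80.3) in shCDC73 libraries, against 29.5, 42.9, 26.3 and 28.5 CPM in shNTC libraries. All knockdown libraries were above all shNTC libraries. The changes were 1.57 ± 0.15 with Dox and 1.40 ± 0.16 with EtOH in shCTR9 cells and 1.34 ± 0.16 and 1.37 ± 0.16 in shCDC73 cells (adjusted p = 8.66e-12, 4.9e-10, 8.03e-10 and 6.78e-10).

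XBP1, the transcription factor made from the spliced transcript, was lower with Dox in both knockdowns. Gene counts do not tell the spliced from the unspliced XBP1 transcript, so the values are of both together. XBP1 had 75.6 to 118 CPM (median 97.6) in Dox shCTR9 and 79.1 to 132 CPM (median 101) in Dox shCDC73 libraries, against 138, 133, 132 and 134 CPM in Dox shNTC libraries, and was lower by 0.47 ± 0.11 under shCTR9 and 0.44 ± 0.11 under shCDC73 (adjusted p = 0.000639 and 0.00135). The Dox call for shCTR9 ended with hairpin 3 alone (adjusted p = 0.0503). With EtOH it was at -0.28 ± 0.12 in shCTR9 cells (adjusted p = 0.0491), which ended without replicate 2 or 3 of EtOH shCTR9 hairpin 3, or replicate 1, 2 or 4 of EtOH shCTR9 hairpin 5, or replicate 1, 2 or 3 of EtOH shNTC (adjusted p = 0.0526 to 0.139) and with hairpin 3 alone (-0.09, adjusted p = 0.62), and at -0.15 ± 0.12 in shCDC73 cells (adjusted p = 0.302).

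EIF2AK3, which encodes PERK, was higher with Dox by 0.82 ± 0.27 under shCTR9 (adjusted p = 0.0123) and 0.88 ± 0.27 under shCDC73 (adjusted p = 0.00634). The shCTR9 call ended without replicate 2 of Dox shNTC (adjusted p = 0.0719), and the shCDC73 call with hairpin 4 alone (adjusted p = 0.125). With EtOH its values were 0.18 ± 0.26 and 0.45 ± 0.25 (adjusted p = 0.6 and 0.143). ATF6, the sensor that is cut in the Golgi to become a transcription factor, was called in 1 of the 4 comparisons, at -0.31 ± 0.11 in shCDC73 cells with EtOH (adjusted p = 0.0192), a call that ended without replicate 1 or 3 of EtOH shNTC (adjusted p = 0.0662 to 0.153) and with hairpin 3 alone (-0.29, adjusted p = 0.0657). WFS1, a membrane protein linked to ER calcium and to ATF6 turnover, was lower in shCDC73 cells with EtOH by 0.43 ± 0.12 (adjusted p = 0.00228), and its other values were 0.13 ± 0.13 and -0.18 ± 0.12 in shCTR9 cells and 0.05 ± 0.13 in shCDC73 cells with Dox.

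PPP1R15A had 92.7 to 179.6 CPM (median 139) in Dox shCTR9 and 101 to 279 CPM (median 180.2) in Dox shCDC73 libraries, against 102, 103, 65.3 and 81.1 CPM in Dox shNTC libraries. The EtOH values were 90.96 to 162 CPM (median 122) in shCTR9 and 76.8 to 219.7 CPM (median 151) in shCDC73 libraries, against 59.9, 62.8, 40.7 and 62.9 CPM in shNTC libraries. The groups did not overlap with EtOH, and with Dox they did. It was higher by 0.60 ± 0.11 with Dox and 1.15 ± 0.12 with EtOH in shCTR9 cells, and by 0.93 ± 0.11 and 1.32 ± 0.12 in shCDC73 cells (adjusted p = 2.86e-05, 8.62e-11, 3.26e-09 and 1.02e-12). CTR9 hairpin 5 alone with Dox gave 0.29 (adjusted p = 0.0916). CDC73 hairpin 4 alone passed with smaller values, 0.40 with Dox and 0.73 with EtOH.

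In ER-associated degradation, SELENOS, a selenoprotein that recruits the ATPase VCP to the ER membrane, had 59.8 to 116 CPM (median 66.5) in EtOH shCTR9 and 51.2 to 92.9 CPM (median 73.7) in EtOH shCDC73 libraries, against 43.9, 43.7, 49.3 and 36.1 CPM in EtOH shNTC libraries. The knockdown libraries with EtOH were all above the shNTC libraries. It was higher by 0.50 ± 0.14 with Dox and 0.73 ± 0.15 with EtOH in shCTR9 cells, and by 0.53 ± 0.14 and 0.73 ± 0.15 in shCDC73 cells (adjusted p = 0.00419, 5.13e-05, 0.00244 and 4.02e-05). With Dox, CTR9 hairpin 5 alone (adjusted p = 0.154) and CDC73 hairpin 4 alone (adjusted p = 0.257) did not pass. HERPUD1, a scaffold of the degradation complex, was higher in shCDC73 cells by 0.58 ± 0.13 with Dox and 0.50 ± 0.12 with EtOH (adjusted p = 0.000197 and 0.00062), and in shCTR9 cells by 0.49 ± 0.13 with Dox (adjusted p = 0.00169), with 0.23 ± 0.12 with EtOH (adjusted p = 0.117). Its Dox call in shCTR9 cells ended with hairpin 5 alone (0.26, adjusted p = 0.194).

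EDEM1 was lower in shCTR9 cells by 0.39 ± 0.09 with Dox and 0.46 ± 0.09 with EtOH (adjusted p = 0.000536 and 4.31e-05), with all shCTR9 libraries below all shNTC libraries in both treatments. In shCDC73 cells no change of EDEM1 was detected (95% interval -0.28 to 0.09 with Dox and -0.26 to 0.10 with EtOH). SEL1L, the adaptor of the HRD1 ligase, was lower in shCDC73 cells with EtOH by 0.38 ± 0.09 (adjusted p = 0.000539), and its other values were -0.15 ± 0.09 in shCDC73 cells with Dox and 0.00 ± 0.09 and -0.21 ± 0.09 in shCTR9 cells with Dox and EtOH. EDEM2, which trims the first mannose, was higher in shCDC73 cells with Dox by 0.50 ± 0.16 (adjusted p = 0.00992), which ended without replicate 3 of Dox shNTC (adjusted p = 0.0631). The EDEM2 value was 0.82 with hairpin 3 alone, and the call ended with hairpin 4 alone (0.19, adjusted p = 0.504). DERL2, a derlin of the degradation channel, was at 0.38 ± 0.16 in shCTR9 cells with EtOH (adjusted p = 0.0433), which ended without replicate 1 or 2 of EtOH shCTR9 hairpin 3, or replicate 1, 2 or 4 of EtOH shCTR9 hairpin 5, or replicate 1, 2, 3 or 4 of EtOH shNTC (adjusted p = 0.0539 to 0.14) and with hairpin 5 alone (0.30, adjusted p = 0.197). SYVN1 was called in none of the 4 comparisons, between -0.24 and 0.11.

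Of the translocon and export genes, SEC61B, the small subunit of the translocon, was at 0.43 ± 0.17 under shCTR9 and 0.48 ± 0.17 under shCDC73 with EtOH (adjusted p = 0.0394 and 0.0197). Its highest EtOH values, 196 and 214 CPM, were in libraries of steep length slope (EtOH shCTR9 hairpin 3 replicate 1 and EtOH shCDC73 hairpin 4 replicate 3), and SEC61B has a short transcript of 653 exonic bases. Without the steep libraries the shCDC73 call ended (adjusted p = 0.147), and it also ended without replicate 3 of EtOH shCDC73 hairpin 4, or replicate 4 of EtOH shNTC (adjusted p = 0.0549 to 0.0575) and with hairpin 3 alone (0.30, adjusted p = 0.215). The shCTR9 call of SEC61B ended without replicate 1 of EtOH shCTR9 hairpin 3, or replicate 1, 3 or 4 of EtOH shCTR9 hairpin 5, or replicate 1, 2, 3 or 4 of EtOH shNTC (adjusted p = 0.0535 to 0.122), and with hairpin 5 alone (0.21, adjusted p = 0.457). SEC61A1, the channel subunit, passed in none of the 4 comparisons, between 0.13 and 0.37. SEC24D was higher in shCDC73 cells with Dox by 0.44 ± 0.16 (adjusted p = 0.0201), which ended without replicate 4 of Dox shCDC73 hairpin 3, or replicate 1 or 2 of Dox shNTC (adjusted p = 0.0538 to 0.0591) and with hairpin 4 alone (0.40, adjusted p = 0.09).

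The hairpins against 1 target were compared with each other, since each carries its own sequence. More genes were called between the CDC73 hairpins than between the CTR9 hairpins. Between CDC73 hairpin 4 and hairpin 3, 9 of the 33 genes were called with Dox (1 higher and 8 lower), against 13% of all genes, and 10 with EtOH (2 higher and 8 lower), against 31.2%. Between CTR9 hairpin 5 and hairpin 3, 1 gene was called with Dox, against 0.279% of all genes, and 0 with EtOH, against 0.589%. PPP1R15A had 121, 136, 101 and 107 CPM with CDC73 hairpin 4 against 279, 231, 224 and 234 CPM with hairpin 3 in Dox, and 94.5, 105, 97.5 and 76.8 CPM against 219.7, 215, 197 and 217 CPM in EtOH. The hairpins did not overlap, and the difference was -1.05 ± 0.12 with Dox and -1.18 ± 0.13 with EtOH (adjusted p = 1.7e-08 and 8.14e-10). The single gene called between the CTR9 hairpins was also PPP1R15A, at -0.63 ± 0.13 for hairpin 5 against hairpin 3 with Dox (adjusted p = 0.0105), a call that ended without replicate 1, 2 or 3 of Dox shCTR9 hairpin 3, or replicate 2, 3 or 4 of Dox shCTR9 hairpin 5 (adjusted p = 0.0504 to 0.075).

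PDIA4 went the other way, with 91.9, 98.2, 102 and 93.1 CPM for CDC73 hairpin 4 against 37.5, 51.6, 45.7 and 65.9 CPM for hairpin 3 in EtOH, again without overlap, a difference of 0.94 ± 0.15 (adjusted p = 4.13e-06). DNAJB11 was lower with CDC73 hairpin 4 by 0.46 ± 0.10 with Dox and 0.43 ± 0.10 with EtOH, and DNAJB9 with EtOH by 0.59 ± 0.15 (adjusted p = 0.00115, 0.00107 and 0.00256). MANF was lower with Dox by 0.51 ± 0.14, and EDEM1, EIF2AK3 and SEC61A1 with EtOH by 0.40 ± 0.10, 0.92 ± 0.28 and 0.85 ± 0.20 (adjusted p = 0.0119, 0.00321, 0.00977 and 0.00119). Without the libraries of steep length slope, 2 of which are CDC73 hairpin 4 libraries with EtOH, the calls of EDEM1 (adjusted p = 0.143) and EIF2AK3 (adjusted p = 0.0959) ended. The other 9 calls between the CDC73 hairpins ended without at least 1 single library. With Dox these were HSPA5 at -0.22 ± 0.07, DNAJB9 at -0.45 ± 0.14, ERO1B at -0.80 ± 0.28, EDEM2 at -0.63 ± 0.18, SELENOS at -0.53 ± 0.16 and SYVN1 at 0.48 ± 0.16, and with EtOH CALR at 0.20 ± 0.08, DNAJC3 at -0.52 ± 0.16 and SEC24D at -0.48 ± 0.17. With Dox, the HSPA5 call ended without replicate 1, 3 or 4 of Dox shCDC73 hairpin 3, or replicate 2 or 4 of Dox shCDC73 hairpin 4 (adjusted p = 0.0645 to 0.0929), and DNAJB9 without replicate 1 or 4 of Dox shCDC73 hairpin 3, or replicate 2 or 4 of Dox shCDC73 hairpin 4 (adjusted p = 0.0705 to 0.106). The ERO1B call ended without replicate 2, 3 or 4 of Dox shCDC73 hairpin 3, or replicate 1, 2, 3 or 4 of Dox shCDC73 hairpin 4 (adjusted p = 0.0589 to 0.149). The EDEM2 call ended without replicate 1 of Dox shCDC73 hairpin 3, or replicate 1 of Dox shCDC73 hairpin 4 (adjusted p = 0.0835 to 0.108) and SELENOS without replicate 1 of Dox shCDC73 hairpin 3, or replicate 2 of Dox shCDC73 hairpin 4 (adjusted p = 0.0532 to 0.148). The SYVN1 call ended without replicate 1, 2 or 3 of Dox shCDC73 hairpin 3, or replicate 1, 2 or 3 of Dox shCDC73 hairpin 4 (adjusted p = 0.0706 to 0.143). With EtOH, CALR ended without replicate 1, 2 or 3 of EtOH shCDC73 hairpin 3, or replicate 2, 3 or 4 of EtOH shCDC73 hairpin 4 (adjusted p = 0.0597 to 0.175). The DNAJC3 call ended without replicate 2 of EtOH shCDC73 hairpin 3, or replicate 3 of EtOH shCDC73 hairpin 4 (adjusted p = 0.0552 to 0.059) and SEC24D without replicate 2 or 4 of EtOH shCDC73 hairpin 3, or replicate 1 or 3 of EtOH shCDC73 hairpin 4 (adjusted p = 0.054 to 0.0888).

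**Figure D5:**
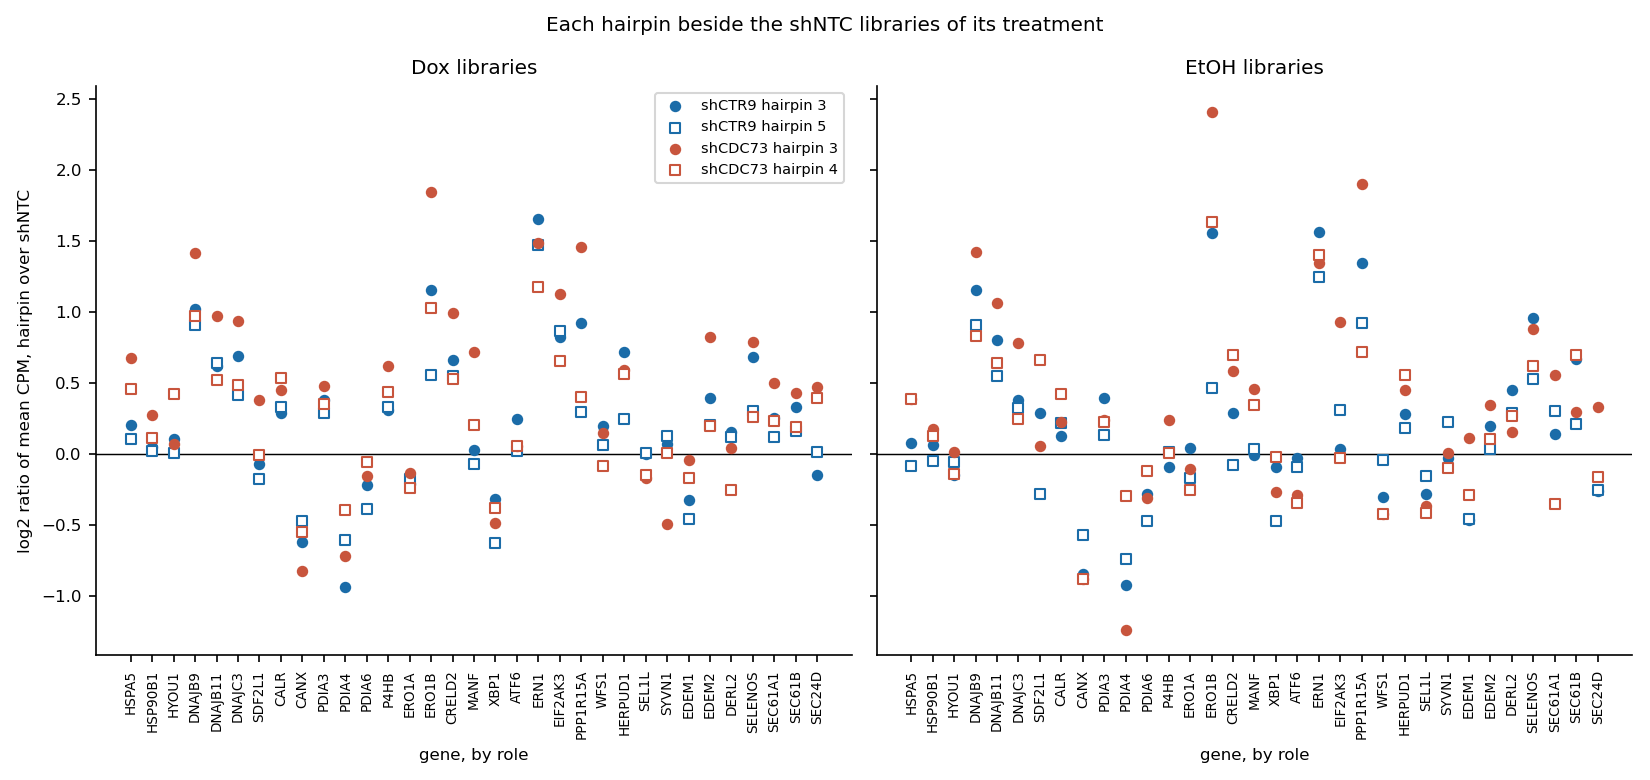
Log2 ratio of the mean CPM of each hairpin to the mean of the shNTC libraries of the same treatment (4 libraries each), for the 33 genes tested, by role; blue is shCTR9, red shCDC73, filled circles hairpin 3 and open squares hairpin 5 (shCTR9) or 4 (shCDC73). For PPP1R15A the red symbols lie furthest apart, while in each panel all 4 hairpins lie above 0 for ERN1 and below 0 for CANX.

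Dox, which induces MYC, was compared with EtOH within each hairpin target. Of the 33 genes, 3 were called in shCTR9, 4 in shCDC73 and 7 in shNTC cells. Every group carries the construct, so an effect of Dox itself and one of MYC cannot be told apart. In simulated data 38.8% of 67 genes changed by 1.5-fold were recovered for Dox against EtOH in shNTC cells, so small changes can be missed. Those genes were drawn from all genes tested, and 12357 were left unchanged. The real comparison called 1066 genes higher and 1121 lower, so the share is not the power for the 33 genes. In shCTR9 cells 2 genes were higher with Dox, against 9.29% of all genes, and 1 was lower, against 9.05%. In shCDC73 cells 4 were higher, against 9.29%, and 0 lower, against 8.24%. In shNTC cells 2 were higher, against 8.49%, and 5 lower, against 8.93%. The medians over the 33 genes were -0.01, 0.06 and -0.06 in shCTR9, shCDC73 and shNTC cells, beside -0.02, -0.02 and -0.01 for all genes. Without the libraries of steep length slope the counts were 5 higher and 2 lower in shCTR9, 8 higher and 1 lower in shCDC73, and 2 higher and 5 lower in shNTC cells.

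The groups did not overlap for 8 of the 33 genes in shNTC cells, against 22.7% of all genes. In shNTC cells PPP1R15A had 102, 103, 65.3 and 81.1 CPM with Dox, against 59.9, 62.8, 40.7 and 62.9 CPM with EtOH. All Dox libraries were above all EtOH libraries, a change of 0.65 ± 0.14 (adjusted p = 0.000739). P4HB had 396, 419, 386 and 377 CPM with Dox, against 472, 549.8, 509 and 534 CPM with EtOH, and all Dox libraries were below all EtOH libraries. It was lower by 0.39 ± 0.10 (adjusted p = 0.00565), and WFS1 by 0.57 ± 0.14 (adjusted p = 0.00269). XBP1 had 138, 133, 132 and 134 CPM with Dox, against 111, 101, 95.3 and 91.4 CPM with EtOH, without overlap, and was higher by 0.43 ± 0.13 (adjusted p = 0.0152), a call that ended without replicate 3 of EtOH shNTC (adjusted p = 0.0505). CALR at -0.23 ± 0.08, PDIA4 at -0.41 ± 0.13 and SEL1L at -0.30 ± 0.11 were also called in shNTC cells (adjusted p = 0.0323, 0.0292 and 0.0433). The call of CALR ended without replicate 2, 3 or 4 of Dox shNTC, or replicate 2, 3 or 4 of EtOH shNTC (adjusted p = 0.0696 to 0.0947). That of PDIA4 ended without replicate 1 or 4 of Dox shNTC, or replicate 2 or 4 of EtOH shNTC (adjusted p = 0.0727 to 0.124), and that of SEL1L without replicate 1, 3 or 4 of Dox shNTC, or replicate 1, 3 or 4 of EtOH shNTC (adjusted p = 0.0505 to 0.181).

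In shCTR9 cells ERN1 was higher with Dox by 0.39 ± 0.11 (adjusted p = 0.00858), though not with either hairpin alone (adjusted p = 0.0757 and 0.183). HSPA5 was at 0.14 ± 0.05 and PDIA4 at -0.34 ± 0.11 (adjusted p = 0.031 and 0.0238). The call of HSPA5 ended without replicate 3 of Dox shCTR9 hairpin 3, or replicate 2 of Dox shCTR9 hairpin 5, or replicate 2 of EtOH shCTR9 hairpin 3, or replicate 2 of EtOH shCTR9 hairpin 5 (adjusted p = 0.0635 to 0.07). The call of PDIA4 ended without replicate 4 of Dox shCTR9 hairpin 3, or replicate 2 of Dox shCTR9 hairpin 5, or replicate 3 or 4 of EtOH shCTR9 hairpin 3 (adjusted p = 0.0541 to 0.1). Neither passed with either hairpin alone. In shCDC73 cells DNAJB9 was higher with Dox by 0.39 ± 0.10 and HSPA5 by 0.16 ± 0.05 (adjusted p = 0.00596 and 0.012), but DNAJB9 not with hairpin 3 alone (adjusted p = 0.169) and HSPA5 not with hairpin 4 alone (adjusted p = 0.632). ATF6 at 0.28 ± 0.10 and PPP1R15A at 0.26 ± 0.09 were also called there (adjusted p = 0.0337 and 0.0326). That of ATF6 ended without replicate 2, 3 or 4 of Dox shCDC73 hairpin 3, or replicate 2 or 3 of Dox shCDC73 hairpin 4, or replicate 1 or 4 of EtOH shCDC73 hairpin 3, or replicate 1, 3 or 4 of EtOH shCDC73 hairpin 4 (adjusted p = 0.05 to 0.0921). That of PPP1R15A ended without replicate 1 of Dox shCDC73 hairpin 3, or replicate 1 or 2 of Dox shCDC73 hairpin 4, or replicate 3 of EtOH shCDC73 hairpin 3, or replicate 4 of EtOH shCDC73 hairpin 4 (adjusted p = 0.0599 to 0.0981). Neither passed with either hairpin alone.

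The Dox responses were compared directly. The difference between the response in shCTR9 and in shNTC cells was called for 0 of the 33 genes, against 0.597% of all genes. That between shCDC73 and shNTC was called for 0, against 0.47%, and that between shCTR9 and shCDC73 for 0, against 0%. The differences of single genes ranged from -0.55 to 0.64 for shCTR9 against shNTC, from -0.51 to 0.48 for shCDC73 against shNTC and from -0.28 to 0.38 for shCTR9 against shCDC73, with lowest adjusted p-values of 0.144, 0.16 and 1 in edgeR. At an unadjusted p below 0.05 there were 3, 5 and 1 of the 33 genes, beside 1324, 1181 and 436 of all 12557 genes. DESeq2's Wald test called 0 of the 33 genes in each.

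Calls in both directions were found among genes with and without an exact match to ERSE or ERSE-II in the windows. Variants of the element and sites outside the windows were not searched, so genes without a match may still carry one. In shCDC73 cells with Dox, of the 11 genes with an ERSE or ERSE-II 6 were higher and 2 lower, with a median change of 0.25. Of the 20 with neither, 10 were higher and 1 lower, with a median of 0.42. Of all genes tested 22.2% were higher and 22.7% lower. With EtOH, 5 of the 11 were higher and 2 lower (median 0.33), and 8 of the 20 were higher and 4 lower (median 0.21). Of all genes tested 24.4% were higher and 24.6% lower. In shCTR9 cells with Dox, 5 of the 11 were higher and 3 lower (median 0.06), and 8 of the 20 were higher and 3 lower (median 0.22). Of all genes tested 21.1% were higher and 20.6% lower. With EtOH in shCTR9 cells, 1 of the 11 was higher and 3 lower (median 0.0065), and 7 of the 20 were higher and 2 lower (median 0.15). Of all genes tested 23.2% were higher and 22.4% lower. The range within the 11 genes in shCDC73 cells with EtOH ran from -0.88 for CANX to 1.92 for ERO1B.

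A wider set of 235 ER genes outside the list, 208 of them tested, held calls in both directions against shNTC. In shCTR9 cells 29 higher and 66 lower were called with Dox (13.9% higher and 31.7% lower, against 21.1% and 20.6% of all genes) and 44 higher and 63 lower with EtOH (21.2% higher and 30.3% lower, against 23.2% and 22.4%), with medians of -0.08 and -0.02. In shCDC73 cells 36 higher and 67 lower were called with Dox (17.3% higher and 32.2% lower, against 22.2% and 22.7% of all genes) and 45 higher and 68 lower with EtOH (21.6% higher and 32.7% lower, against 24.4% and 24.6%), with medians of -0.07 and -0.05. Between shCTR9 and shCDC73 cells 21 higher and 20 lower were called with Dox (10.1% higher and 9.62% lower, against 5.69% and 4.65% of all genes) and 31 higher and 18 lower with EtOH (14.9% higher and 8.65% lower, against 8.34% and 6.59%).

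Of all genes tested 21.1% were higher and 20.6% lower in shCTR9 cells with Dox, and 22.2% higher and 22.7% lower in shCDC73 cells, and the shares of the lists that follow are read against these. Among 36 further folding factors, 7 higher and 15 lower (19.4% higher and 41.7% lower) were called in shCTR9 and 8 higher and 12 lower (22.2% higher and 33.3% lower) in shCDC73 cells with Dox. TXNDC12, a thioredoxin-like protein, fell by 0.90 ± 0.12 and 1.02 ± 0.12, and KDELR1, a receptor that returns ER residents from the Golgi, fell by 0.73 ± 0.09 in shCTR9 cells. UGGT1, the glucosyltransferase that sends glycoproteins back to calnexin, fell in shCDC73 cells by 0.92 ± 0.12. Between shCTR9 and shCDC73 cells 1 higher and 8 lower were called with Dox (2.78% higher and 22.2% lower, against 5.69% and 4.65% of all genes), with the prolyl isomerase PPIB at -0.37 ± 0.07. In the enzymes that build and trim N-glycans, 2 higher and 8 lower (6.67% higher and 26.7% lower) of 30 were called in shCTR9 and 3 higher and 12 lower (10% higher and 40% lower) in shCDC73 cells with Dox. STT3B, a catalytic subunit of oligosaccharyltransferase, fell by 0.55 ± 0.08 and 0.77 ± 0.08, and glucosidase II subunit GANAB fell by 0.82 ± 0.10 in shCTR9 cells.

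In the PERK, ATF4 and CHOP branch, 3 higher and 9 lower (13.6% higher and 40.9% lower) of 22 were called in shCTR9 and 5 higher and 7 lower (22.7% higher and 31.8% lower) in shCDC73 cells with Dox. SESN2, a stress-induced regulator of mTORC1, was higher by 1.07 ± 0.10 and 1.04 ± 0.10, and EIF2AK2, the RNA-activated kinase PKR, lower by 1.33 ± 0.10 and 1.55 ± 0.10. With Dox against EtOH in shNTC cells 5 of the 22 were higher (22.7% higher and 0% lower, against 8.49% and 8.93% of all genes), among them TRIB3 at 1.15 ± 0.17 and VEGFA at 0.60 ± 0.10. Of 28 further degradation genes, 3 higher and 11 lower (10.7% higher and 39.3% lower) were called in shCTR9 and 3 higher and 11 lower (10.7% higher and 39.3% lower) in shCDC73 cells with Dox, with FAF2, which brings VCP to the membrane, lower by 0.91 ± 0.10 and 1.08 ± 0.10. Of 19 further sensor and signal genes 1 higher and 5 lower (5.26% higher and 26.3% lower) were called in shCTR9 cells and 2 higher and 7 lower (10.5% higher and 36.8% lower) in shCDC73 cells with Dox, with MBTPS2, the protease that completes the cut of ATF6, lower by 0.75 ± 0.15 and 0.93 ± 0.16. Between shCTR9 and shCDC73 cells CREB3L1, a membrane-bound transcription factor related to ATF6, was lower by 1.21 ± 0.25 with Dox.

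Of 32 further translocation genes 7 higher and 6 lower (21.9% higher and 18.8% lower) were called in shCTR9 cells and 6 higher and 6 lower (18.8% higher and 18.8% lower) in shCDC73 cells with Dox, and with EtOH SRPRB, a subunit of the signal recognition particle receptor, was higher by 0.76 ± 0.11 in shCTR9 and 0.88 ± 0.11 in shCDC73 cells. Of 26 COPII and export genes 3 higher and 7 lower (11.5% higher and 26.9% lower) were called in shCTR9 cells and 5 higher and 6 lower (19.2% higher and 23.1% lower) in shCDC73 cells with Dox, with the cargo receptor LMAN1 lower by 0.80 ± 0.09 and 0.86 ± 0.09. The COPII GTPase SAR1A was higher in shCTR9 than in shCDC73 cells by 0.39 ± 0.06 with Dox and 0.53 ± 0.06 with EtOH. Of 15 genes of ER shape and turnover 3 higher and 5 lower (20% higher and 33.3% lower) were called in shCTR9 cells and 4 higher and 6 lower (26.7% higher and 40% lower) in shCDC73 cells with Dox, and RETREG3, a reticulophagy receptor, was higher by 0.92 ± 0.10 in shCTR9 cells, while ATL3, which fuses ER tubules, was lower by 0.83 ± 0.10 in shCDC73 cells.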

How the data were processed

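RNA-seq gene counts of 40 libraries of the U2OS line were deposited as 1 table per library. Bowtie, HISAT2, edgeR and the build hg19 are named in the submitters' processing notes; no source used here gives the counting program, annotation or strand setting. The deposited values are raw read counts per Ensembl gene, not normalized. Each table lists 63545 entries, of which 393 LRG entries at 0 were left out. Libraries held 877323 to 1532617 counts, so genes of few reads are measured with little precision.

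Counts were fitted over all 10 groups with edgeR 4.0.16 (R 4.3.3) by the quasi-likelihood test with TMM factors (0.9226 to 1.029), the expression filter of edgeR (12557 genes kept, 98.65% of reads) and Benjamini-Hochberg adjustment over all of them at 0.05. Hairpins of a target were averaged with equal weight. CPM values use the TMM-scaled library size. Intervals are 95% intervals of the fit. The fit was tested on simulated data with known changes.

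Symbols, exonic lengths, overlaps and pseudogenes came from GENCODE v29 (GRCh38), and promoters from RefSeq (GRCh38.p14). Lengths and overlaps were computed from the GRCh38 exon coordinates, while the build named for the counts is hg19. Alternatives were DESeq2 1.42.0, other scalings and filters, each library left out, single hairpins, replicate subsets, a replicate block, and the length slope as a covariate. The listed genes and the wider lists were chosen with earlier results of these data known. All listed genes are accounted for. Genes of the wider lists were to be named from those that a rule gave. The rule gave the 3 of each list with the smallest p between shCTR9 and shCDC73, and the 2 with the smallest p in each other comparison. Only some of the genes that the rule gave are named here, so the named genes are a further selection. Hairpin and induction checks use CTR9, CDC73 and MYC.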

Additional observations from a re-analysis of the deposited data

Results flagged for a closer look

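For each of the 33 genes, the 4 libraries of each of the 10 groups were searched for a highest or lowest library whose gap to the nearest of the others exceeded Dixon's 95% critical share of the group's range. Of 330 groups, 18 met this, and chance gives about 1 in 20 (16.5). All values are CPM.
CALR was at 681 in Dox shNTC replicate 1, above the other libraries (610.2 to 619). CALR was at 678 in EtOH shNTC replicate 1, below the other libraries (762 to 764). CANX was at 577 in Dox shCDC73 hairpin 3 replicate 1, below the other libraries (751 to 775). DERL2 was at 55.4 in Dox shCTR9 hairpin 3 replicate 1, above the other libraries (35.4 to 37.2). DERL2 was at 55.8 in Dox shCTR9 hairpin 5 replicate 1, above the other libraries (32.5 to 35.9). DNAJB9 was at 45.7 in Dox shCTR9 hairpin 3 replicate 4, below the other libraries (58.5 to 59.9). EDEM2 was at 64.9 in Dox shCDC73 hairpin 3 replicate 1, above the other libraries (47.6 to 50.1). ERO1B was at 15.2 in Dox shCTR9 hairpin 3 replicate 3, above the other libraries (6.77 to 8.15). HSPA5 was at 1433 in Dox shCDC73 hairpin 3 replicate 2, below the other libraries (1606 to 1636). HSPA5 was at 1030.0 in Dox shNTC replicate 3, above the other libraries (969 to 978). HSPA5 was at 1395 in EtOH shCDC73 hairpin 3 replicate 4, above the other libraries (1264 to 1285). HYOU1 was at 64.8 in EtOH shCTR9 hairpin 3 replicate 1, below the other libraries (157 to 169.8). PPP1R15A was at 40.7 in EtOH shNTC replicate 3, below the other libraries (59.9 to 62.9). SEC24D was at 51.2 in EtOH shNTC replicate 4, above the other libraries (46 to 46.4). SEC61B was at 77.9 in Dox shCTR9 hairpin 5 replicate 2, below the other libraries (103 to 107). SEL1L was at 117 in EtOH shCDC73 hairpin 3 replicate 4, below the other libraries (141 to 144). WFS1 was at 52.1 in Dox shNTC replicate 2, above the other libraries (43.3 to 44.6). XBP1 was at 75.6 in Dox shCTR9 hairpin 5 replicate 2, below the other libraries (90.2 to 92.5). The HYOU1 value is in a library of steep length slope. The calls of HSPA5 between shCTR9 and shCDC73 cells held without each single library.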

How the results depend on the processing

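Over 58 alternatives, leaving out each library included, 13848 values of the 33 genes were recomputed; 13142 kept their direction and their side of the threshold, 425 lost the threshold, 276 gained it and 5 reversed, and 38 of 123 calls held in every alternative. Counts of genes called are given for the alternatives that moved them by over 1.5 times. For shCTR9 against shCDC73 with Dox (8 called), the count was 15 with the length slope as covariate, 5 without a filter on low counts, 0 in replicates 1 and 2, 2 in replicates 3 and 4, and 5, 15 and 2 for CTR9 hairpin 3 with CDC73 hairpin 4, 5 with 3, and 5 with 4; leaving out 1 library gave 7 to 9. With EtOH (6 called), it was 17 with the covariate, 14 with a replicate block, 2 in replicates 1 and 2, 1 in replicates 3 and 4, and 13 for hairpins 5 with 3; leaving out 1 library gave 5 to 11. Against shNTC, shCTR9 with Dox (20) gave 9 in replicates 1 and 2, 9 in replicates 3 and 4 and 13 with hairpin 5 alone, and 17 to 19 without 1 library; with EtOH (14) 9 in either pair of replicates, and 11 to 14. For shCDC73 with EtOH (20) it was 11 in replicates 1 and 2, and 18 to 21 without 1 library; with Dox (21) 19 to 22. For Dox against EtOH, shCDC73 (4) gave 9 with the covariate, 2 without a filter, 0 and 1 in the replicate pairs, 2 with either hairpin and 9 without the steep libraries, and 2 to 4 without 1 library. In shCTR9 (3) it was 9 with the covariate, 0 in replicates 1 and 2, 0 with hairpin 3, 1 with hairpin 5 and 7 without the steep libraries, and 2 to 7; in shNTC (7) 1 and 3 in the replicate pairs, and 4 to 6. Between CDC73 hairpins with Dox (9) it was 16 with the covariate, 14 with only the compared groups and 1 in either pair of replicates, and 4 to 7; with EtOH (10) 2 and 5 in the replicate pairs, and 7 to 15. Between CTR9 hairpins with Dox (1) it was 2 with the covariate, with only the compared groups and without the steep libraries, 0 in either pair, and 0 to 1; with EtOH (0) 1 with the covariate and 1 with the block. Of the differences of Dox response (0), shCTR9 minus shNTC gave 2 with the covariate and 1 with the block, and shCDC73 minus shNTC 1 and 1. The reversed values were PDIA4 at 0.50 (hairpins 5 and 3, EtOH), PDIA6 at 0.026 (3 and 3, EtOH) and PPP1R15A at 0.51 with Dox and 0.63 with EtOH (3 and 4) for shCTR9 against shCDC73, and SDF2L1 at -0.35 for shCTR9 against shNTC with EtOH (covariate). The cause was not tested. Same-numbered libraries correlated at a median of 0.0454 (180 pairs, 42 over 0.1), against -0.014 for other numbers, and 28 of 40 libraries correlated best with their own number, a hint from the data of something shared. In 0 of 45 pairs of groups were all correlations over 0.1, so the numbers are not taken as pairs, and the replicate block is an alternative. Transcripts of few reads, such as ERO1B, are limited by depth.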
